A study of Xenopus laevis with 72 samples.

Results

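The genes of DNA replication licensing and the replication fork were described in RNA sequencing of whole Xenopus laevis embryos around zygotic genome activation. Members were chosen by name: genes whose symbol begins with mcm, orc, gins, rfc or rpa followed by a digit, pola1, the pold and pole subunits, and pcna, cdc6, cdc45, cdt1, gmnn and rif1. This gave 57 of the 39668 genes in the tables, of which 38 lie on L and 19 on S chromosomes, the pair of subgenomes of this allotetraploid frog. They include 14 pairs of L and S copies (homeologs). recql4, which the rule also names, was not analysed here. One member, mcm3ap.L, matches by its name, but its product, which has a role in mRNA export, is no MCM subunit.

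Wild-type embryos received, at the 1-cell stage, 9.2 nl of a 1 mM morpholino solution. The oligo blocked translation of cxxc1 (the Cxxc1 MO group) or of kmt2b (the Kmt2b MO group) or was a standard control (Ctrl MO), and a further group stayed uninjected (NI Ctrl). They were grown at 18 °C and collected at 5.5, 6.5 and 7.5 hours post fertilization (hpf). Embryos of 2 frogs are the 2 biological replicates, and each group at each time has 3 libraries per biological replicate, each pooled from 3 embryos, for 72 libraries in all. The 3 libraries of a frog share their parents, so their spread leaves out differences between clutches, which rest on 2 frogs. The knockdowns act on translation, so the level of the targeted RNA does not check the labels, and both targeted genes were not analysed here. Cxxc1 and Kmt2b both belong to complexes that methylate histone H3 at lysine 4, and the comparisons ask which RNAs depend on them.

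Before S phase, the origin recognition complex, Cdc6 and Cdt1 load the ring-shaped MCM2-7 helicase onto DNA, a step called licensing, which geminin (gmnn) blocks by binding Cdt1. Cdc45 and the GINS complex then join MCM2-7 to form the active helicase, and polymerases alpha, delta and epsilon copy the strands, with PCNA as sliding clamp, RFC as its loader and RPA on single-stranded DNA. The frog embryo cleaves on proteins and RNAs stored in the egg, with S phases far shorter than in later cells, and egg extracts of this species are a classical system for the study of these proteins.

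Values are TPM (a transcript's share of its library), corrected for transcript length and with a fixed total per library, so read depth is unknown. Protein-coding genes took 64.7 to 86.8% (biological replicate 1) and 47.9 to 88.4% (biological replicate 2) of the TPM. In the same order, tRNA genes took 0.021 to 0.075% and 0.093 to 0.261% at 5.5 hpf. At 6.5 hpf they took 0.204 to 0.553% and 1.985 to 5.185%, and at 7.5 hpf 3.42 to 6.68% and 12.9 to 25.1%. Because of this shift, each library was also divided by a median-of-ratios factor (0.627 to 1.31 and 0.465 to 1.56 in the 2 biological replicates), which sets the typical gene level across libraries, and these values are called scaled TPM. Markers fitted the labelled stage: the summed level of 11 zygotic mesendoderm genes was 0.779 to 8.38 TPM at 5.5 hpf and 95.7 to 550 TPM at 7.5 hpf, and 10 genes of later tissues summed to at most 1.96 TPM. As these are whole embryos, fewer cells with an RNA and less of it per cell cannot be told apart. The tRNA share was higher in biological replicate 2 at each time, and whether its embryos were at a later stage was not tested.

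Most members were present throughout: 46 of 57 stood at 5 TPM or more in every library. The share of all genes at this level was not taken. The highest level was that of gmnn.L, the licensing inhibitor, which averaged 407 TPM in biological replicate 1 and 303 TPM in biological replicate 2, and gmnn.S averaged 382 and 287 TPM. The loading factor cdt1.L averaged 335 and 253 TPM and its S copy 158 and 135 TPM (cdt1.S), and cdc6.L 287 and 263 TPM. The origin recognition subunits lay lower, with orc1.L, the largest subunit, at 85.4 and 77.7 TPM and orc2.S at 12.1 and 8.94 TPM.

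**Figure D1:**
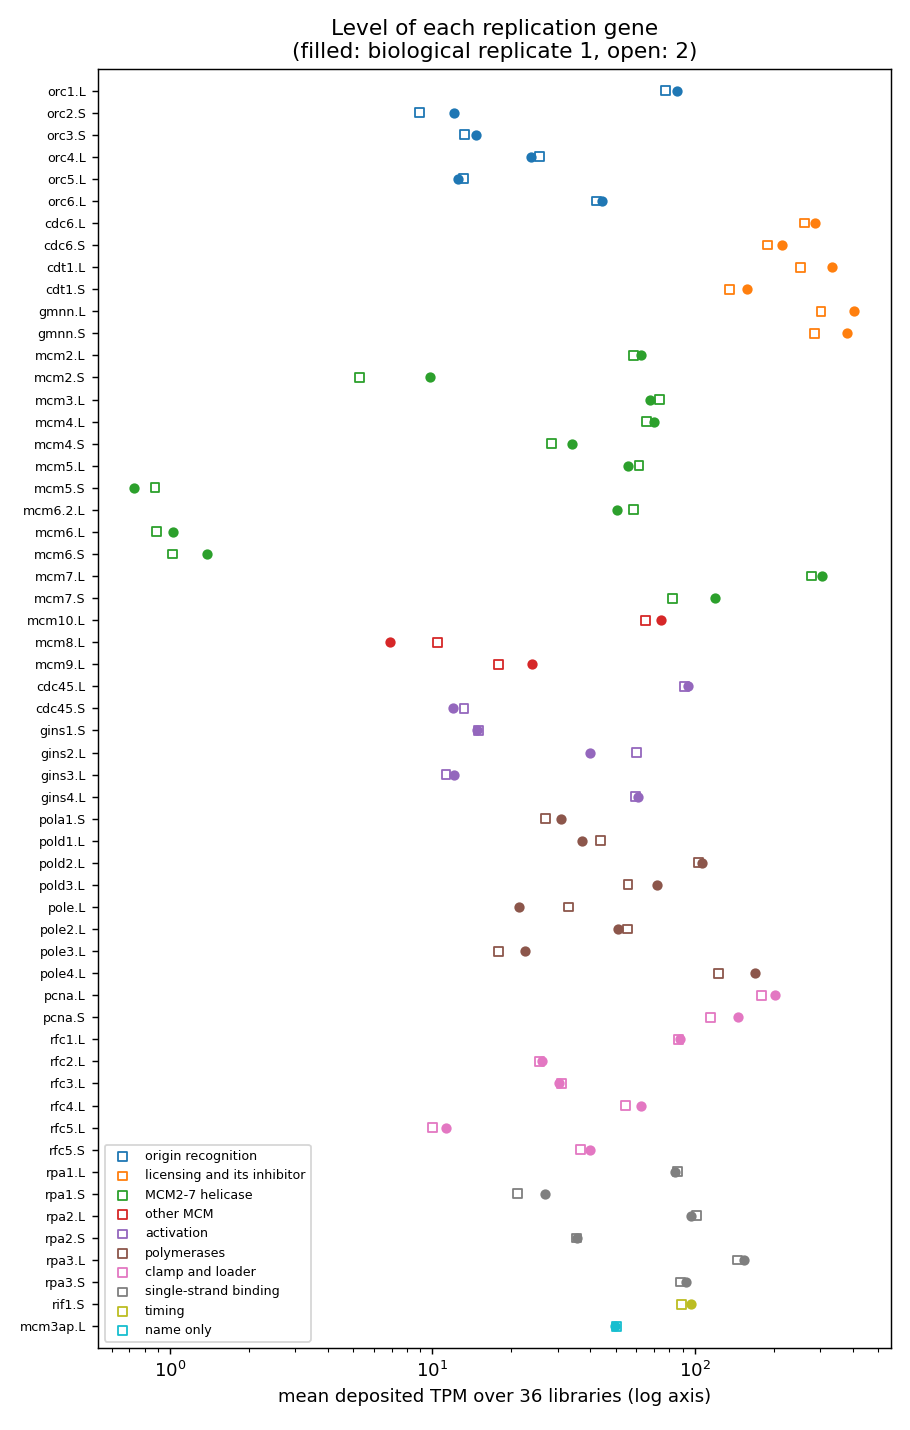
Mean deposited TPM of each of the 57 genes over the 36 libraries of a biological replicate (x axis, log scale; filled circles biological replicate 1, open squares biological replicate 2; colours give the role group). gmnn.L stands highest, at 407 and 303 TPM, and mcm5.S, mcm6.L and mcm6.S stand lowest, near 1 TPM.

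Among the helicase subunits mcm7.L was highest, at 307 and 278 TPM, with its homeolog mcm7.S at 120 and 82.5 TPM, against 50.4 and 58.3 TPM for mcm6.2.L and 62.5 and 58.3 TPM for mcm2.L. The subunits of one ring therefore differed several-fold in RNA. mcm6.L averaged 1.03 and 0.885 TPM and mcm6.S 1.38 and 1.02 TPM. Among the members named mcm6, mcm6.2.L, whose reference synonym is zMCM6, therefore carried nearly all the RNA. mcm5.S was at 0.731 and 0.876 TPM while mcm5.L was at 55.8 and 61.3 TPM.

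Of the activating factors, cdc45.L had 94.4 and 91.1 TPM and gins3.L only 12.1 and 11.3 TPM. pole4.L, the small histone-fold subunit of polymerase epsilon, led the polymerase genes at 170 and 123 TPM. pcna.L stood at 202 and 179 TPM, and rpa3.L, the smallest RPA subunit, at 154 and 145 TPM. TPM is corrected for transcript length, so these levels can be set side by side.

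The L copy held most of the RNA of 10 of the 14 homeolog pairs in all 72 libraries. The share of all homeolog pairs with this pattern was not taken, so the count is not a trait of these genes. It held 82.7 to 94.2% of mcm2 RNA, 84.1 to 91.1% of cdc45 RNA and 97.8 to 99.5% of mcm5 RNA. rfc5, a loader subunit, was the reverse, with 14.0 to 29.6% from the L copy. For rpa1, the L copy (rpa1.L) held 72.5 to 82.6%. The gmnn pair was near even, the L copy holding 42.1 to 59.0%.

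From 5.5 to 7.5 hpf some members rose and others fell relative to the typical gene in uninjected embryos. Genes averaging 1 TPM or more in both biological replicates were tested (19544 genes, 55 members; mcm5.S and mcm6.L were too low) with limma on log2(scaled TPM + 1), and a change was called where the Benjamini-Hochberg adjusted p was under 0.05, in the same direction, in both biological replicates. In NI Ctrl embryos 16 of 55 members rose (background 28.2% of all genes) and 14 fell (background 17.5%), so the rising share was near that of all genes. The median change of the members was -0.06, against 0.04 over all genes.

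These directions are relative to the typical gene and depend on the scale. On deposited TPM 0 members rose (background 11.4%) and 48 fell (background 71.5%), with a median change of all genes of -0.92. On TPM rescaled to protein-coding genes, 3 rose (background 6.45%) and 42 fell (background 73.2%), with a median of -0.67. The 14 members that fell on scaled TPM fell on all 3 scales. Both other scales add the fall of the typical gene, so this is no separate check. Of the 16 that rose, 10 fell on deposited TPM, and only gmnn.S, pole4.L and rpa3.S also rose on protein-coding TPM.

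The deepest fall was that of orc5.L, an ATP-binding subunit of the origin recognition complex. At 7.5 hpf the NI Ctrl libraries held 5.68, 4.77 and 5.28 scaled TPM in biological replicate 1, against 21.0, 14.8 and 14.6 scaled TPM at 5.5 hpf. In biological replicate 2 they held 7.18, 5.20 and 5.19 scaled TPM at 7.5 hpf, against 18.3, 16.3 and 13.2 scaled TPM at 5.5 hpf. No library of the later time overlapped one of the earlier time. The log2 change was -1.49 ± 0.14 (SE, limma adjusted p = 5.9e-10) and -1.31 ± 0.14 (adjusted p = 4.3e-09). orc5.L was the only member that fell by 6.5 hpf, when 0 members rose (background 1.98%) and 1 fell (background 0.404%), a call lost in 2 of 12 fits without 1 library. From 6.5 to 7.5 hpf 17 rose (background 25.5%) and 11 fell (background 16.0%).

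cdc45.L, the helicase activator, followed, with a log2 change of -0.62 ± 0.05 and -0.98 ± 0.05 (SE) in the 2 biological replicates, and cdc45.S with -0.37 ± 0.10 and -0.56 ± 0.09. In the helicase ring, mcm2.S, mcm4.L, mcm4.S and mcm5.L fell and mcm7.L rose, by 0.32 ± 0.04 and 0.36 ± 0.04 on scaled TPM, while on deposited TPM it was lower at 7.5 hpf. All 3 members outside the ring, mcm8.L, mcm9.L and mcm10.L, fell. pola1.S, the catalytic subunit of polymerase alpha, changed by -0.39 ± 0.07 and -0.41 ± 0.07.

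Among those that rose relative to the typical gene, gmnn.S held 566, 641 and 620 scaled TPM at 7.5 hpf, against 305, 287 and 298 scaled TPM at 5.5 hpf in biological replicate 1. In biological replicate 2 it held 490, 441 and 425 scaled TPM, against 224, 228 and 236. These libraries did not overlap between times, and the log2 changes were 1.03 ± 0.10 and 0.97 ± 0.09 (SE). In deposited TPM the changes were 0.18 and -0.36. rpa3.S changed by 1.23 ± 0.14 and 1.06 ± 0.11 on scaled TPM, and pole4.L by 0.97 ± 0.13 and 1.25 ± 0.13. orc6.L, the smallest origin recognition subunit, rose by 0.44 ± 0.07 and 0.77 ± 0.07 on scaled TPM and fell on deposited TPM. pcna.S rose by 1.11 ± 0.17 and 0.91 ± 0.14 on scaled TPM but not on either other scale.

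**Figure D2:**
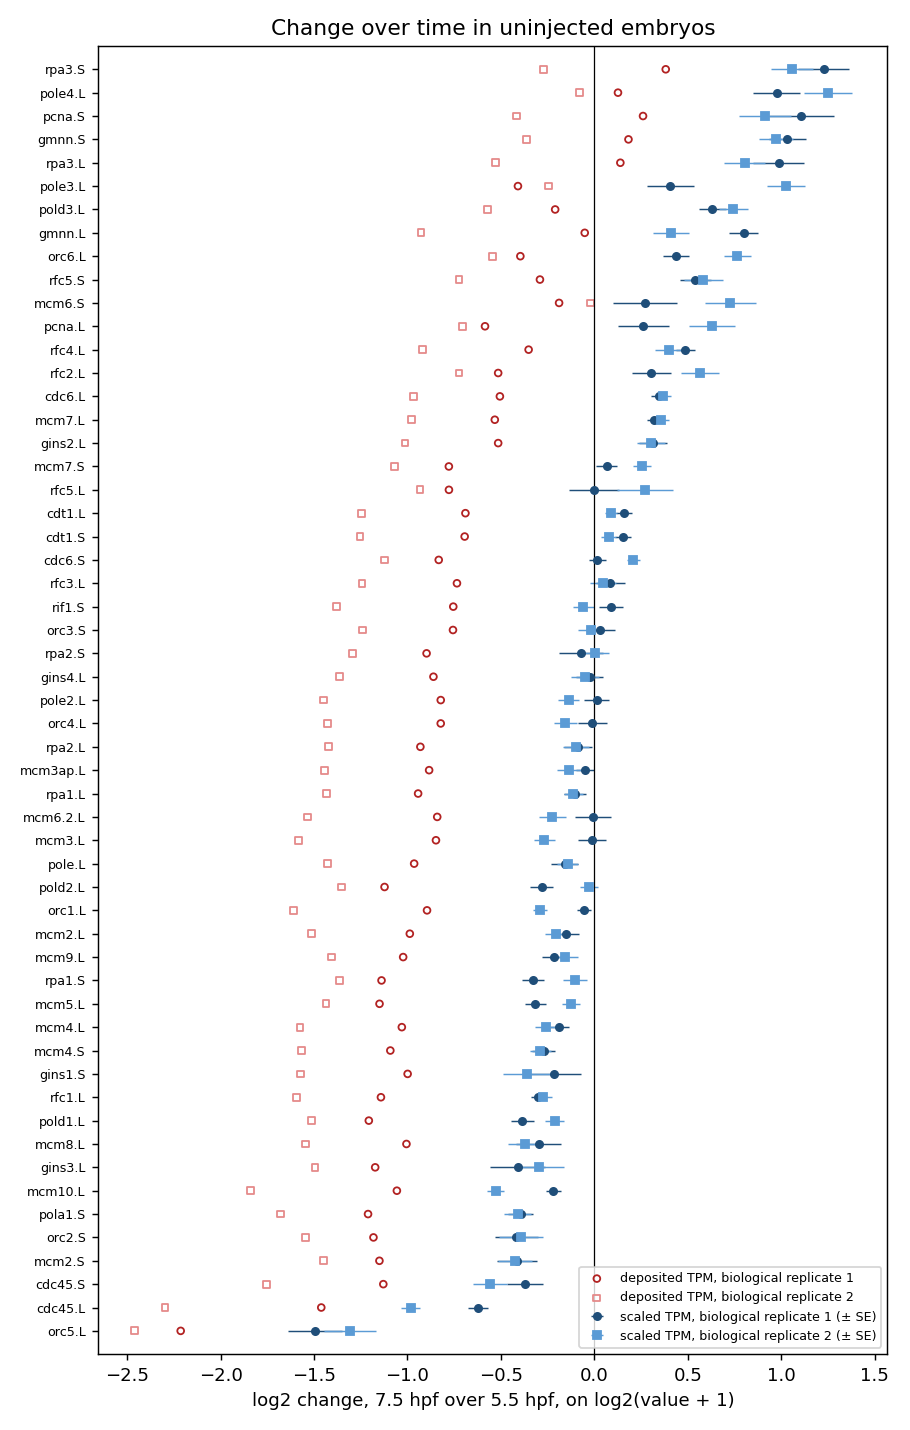
Log2 change from 5.5 to 7.5 hpf in NI Ctrl embryos for the 55 tested genes, on log2(value + 1) (x axis). Filled points with SE bars are scaled TPM and open points deposited TPM, circles biological replicate 1 and squares biological replicate 2. orc5.L lies lowest on both scales, and deposited changes lie to the left of scaled ones throughout.

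By role, 4 of 6 genes of licensing and its inhibitor (cdc6.L, cdt1.L, gmnn.L and gmnn.S), 4 of 8 clamp and loader genes and 1 of 10 helicase subunits rose in NI Ctrl on scaled TPM, where 28.2% of all genes rose. Differences between roles were not tested. The remaining 25 members did not pass in NI Ctrl, rif1.S and mcm3ap.L among them, and 20 passed in no group (background 44.0%). The other injection groups gave like counts. In Cxxc1 MO embryos 12 members rose (background 25.3%) and 14 fell (background 14.2%). In Kmt2b MO embryos 14 rose (background 26.3%) and 13 fell (background 15.6%), and in Ctrl MO embryos 16 rose (background 27.1%) and 11 fell (background 15.9%). A set of 12 members rose in all 4 groups (background 21.1%) and 8 fell in all 4 (background 9.58%), so the rising share was near that of all genes, and none rose in one group and fell in another. The groups share no libraries, but the embryos of all groups came from the same 2 frogs.

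The time change differed from that of Ctrl MO for 1 member, rpa2.L, in Cxxc1 MO embryos (background 0.230%) and again in Kmt2b MO embryos (background 0.640%). rpa2.L encodes the middle subunit of RPA, the trimer that coats single-stranded DNA, and lies on chromosome 2L at 59158645 to 59167294 (assembly Xenopus_laevis_v10.1). In biological replicate 1 at 7.5 hpf it had 71.0, 81.5 and 74.6 scaled TPM in Cxxc1 MO and 72.3, 72.2 and 86.3 in Kmt2b MO libraries, against 108, 103 and 107 in Ctrl MO and 107, 94.8 and 93.3 in NI Ctrl libraries. In biological replicate 2 it had 67.8, 60.3 and 73.1 scaled TPM in Cxxc1 MO and 68.4, 64.0 and 66.5 in Kmt2b MO, against 102, 98.7 and 104 in Ctrl MO and 95.3, 99.9 and 107 in NI Ctrl. Every knockdown library was below every control library of its frog.

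The log2 difference from Ctrl MO at 7.5 hpf was -0.54 ± 0.06 (SE, n = 6 libraries a group, limma adjusted p = 1.6e-05) for Cxxc1 MO and -0.53 ± 0.06 (limma adjusted p = 1.1e-05) for Kmt2b MO. At 6.5 hpf it was -0.32 ± 0.04 (limma adjusted p = 0.00023) and -0.33 ± 0.04 (limma adjusted p = 8.5e-05), and at 5.5 hpf -0.18 ± 0.05 for both (limma adjusted p = 0.13 and 0.068). The calls at 6.5 and 7.5 hpf held on all 3 scales and without any 1 library. Fitted alone, biological replicate 1 gave -0.48 and -0.46 at 7.5 hpf (limma adjusted p = 0.10 and 0.097) and biological replicate 2 gave -0.59 and -0.61 (limma adjusted p = 0.0070 and 0.0024). At 6.5 hpf neither biological replicate passed when fitted alone (limma adjusted p = 0.16 and 0.050 in the first, 0.059 and 0.077 in the second). The difference of the changes over time was -0.36 ± 0.07 for both knockdowns (limma adjusted p = 0.011 and 0.0036), and this call was lost on both other scales and with NI Ctrl in place of Ctrl MO.

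**Figure D3:**
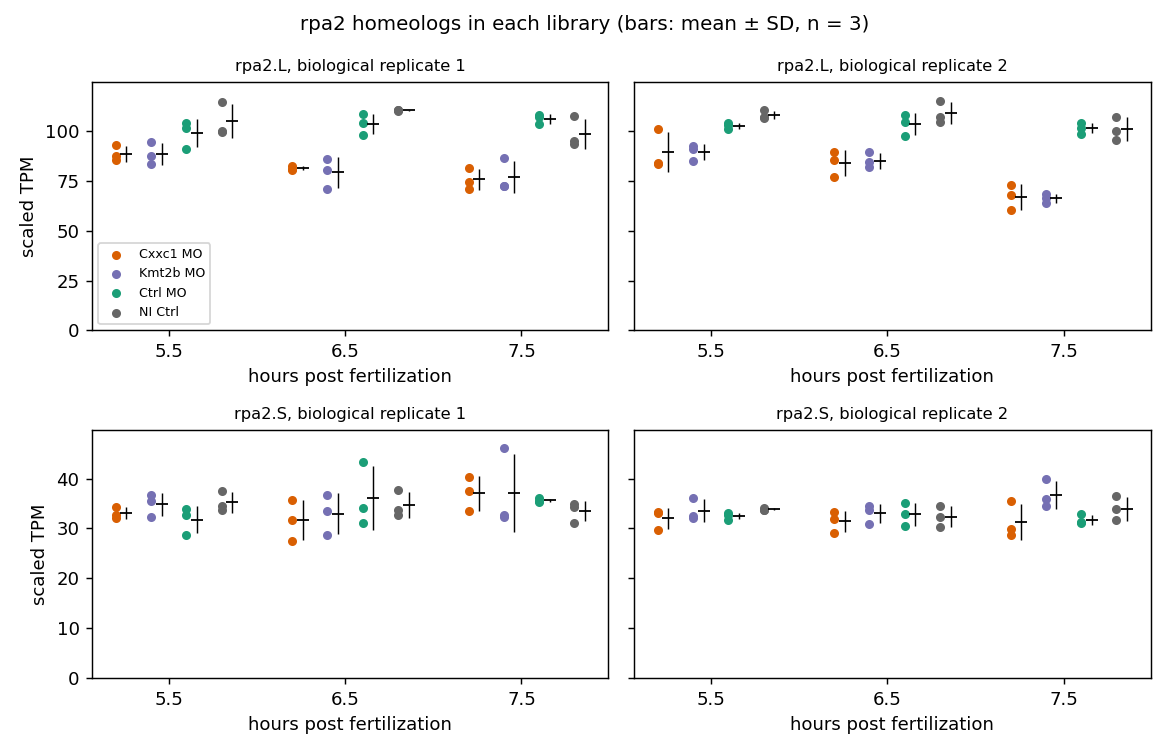
Scaled TPM of rpa2.L (top) and rpa2.S (bottom) in each library by hours post fertilization, left biological replicate 1 and right biological replicate 2, with mean ± SD beside each group of 3 libraries. At 7.5 hpf the Cxxc1 MO and Kmt2b MO libraries of rpa2.L lie between 60.3 and 86.3, below all Ctrl MO and NI Ctrl libraries, while those of rpa2.S overlap the controls.

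Its homeolog rpa2.S did not pass the test at any time. At 7.5 hpf in the first frog's embryos it averaged 37.0 ± 3.49 scaled TPM with Cxxc1 MO and 37.0 ± 7.78 with Kmt2b MO, against 35.6 ± 0.334 with Ctrl MO (SD, n = 3). In the second frog's embryos the L copy held 68.1 ± 4.45% of rpa2 RNA with Cxxc1 MO and 64.4% with Kmt2b MO, against 76.2 ± 0.992% with Ctrl MO. Such a share, like the ratio, takes in changes of both copies. The L to S ratio was tested over 4327 homeolog pairs, an analysis added after the data were seen. At 7.5 hpf the rpa2 ratio was lower in Cxxc1 MO, by a log2 difference of -0.55 ± 0.10 (SE, limma adjusted p = 0.0029), and it was the only 1 of 12 member pairs called (background 2.75%). In Kmt2b MO 4 pairs were called (background 5.69%): rpa2 at -0.65 ± 0.10, rpa1 at -0.31 ± 0.06, mcm2 at -0.28 ± 0.08 and mcm4 at -0.24 ± 0.07. At 6.5 hpf 0 pairs were called in Cxxc1 MO (background 1.96%) and 3 in Kmt2b MO (background 3.51%), and at 5.5 hpf 0 (background 0.347%) and 1 (background 1.09%). The rpa2 ratio was among these 3, at -0.27 ± 0.08 (limma adjusted p = 0.047). It was also the 1 called in Kmt2b MO at 5.5 hpf, at -0.27 ± 0.05 (limma adjusted p = 0.0041). In Cxxc1 MO at 5.5 hpf the rpa2 ratio stood at -0.20 ± 0.05 and did not pass (limma adjusted p = 0.076). In NI Ctrl embryos 3 of the 12 ratios changed from 5.5 to 7.5 hpf (background 24.8%), cdc6 toward L and gmnn and pcna toward S.

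gins1.S, a subunit of the GINS complex on chromosome 5S (30482908 to 30493271), was the member most often higher in knockdowns. At 5.5 hpf in biological replicate 1 it had 16.4, 17.8 and 18.5 scaled TPM in Cxxc1 MO and 16.6, 17.5 and 19.9 in Kmt2b MO, against 12.6, 12.3 and 11.8 in Ctrl MO and 13.5, 17.2 and 14.0 in NI Ctrl. In biological replicate 2 it had 17.1, 19.5 and 16.0 in Cxxc1 MO and 19.0, 18.1 and 18.1 in Kmt2b MO, against 12.8, 12.1 and 15.3 in Ctrl MO and 13.8, 15.2 and 12.0 in NI Ctrl. The knockdown libraries were above all Ctrl MO libraries, and in biological replicate 1 some overlapped NI Ctrl.

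The log2 difference of gins1.S from Ctrl MO was 0.43 ± 0.07 in Cxxc1 MO (limma adjusted p = 0.0048) and 0.48 ± 0.07 in Kmt2b MO (limma adjusted p = 0.00063) at 5.5 hpf. At 6.5 hpf it was 0.40 ± 0.10 (limma adjusted p = 0.030) and 0.53 ± 0.10 (limma adjusted p = 0.0018). At 7.5 hpf it was 0.52 ± 0.11 in Kmt2b MO (limma adjusted p = 0.0066) and 0.39 ± 0.11 in Cxxc1 MO, which did not pass (limma adjusted p = 0.069). Only an S copy of gins1 was in the tables, so no homeolog could be compared.

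**Figure D4:**
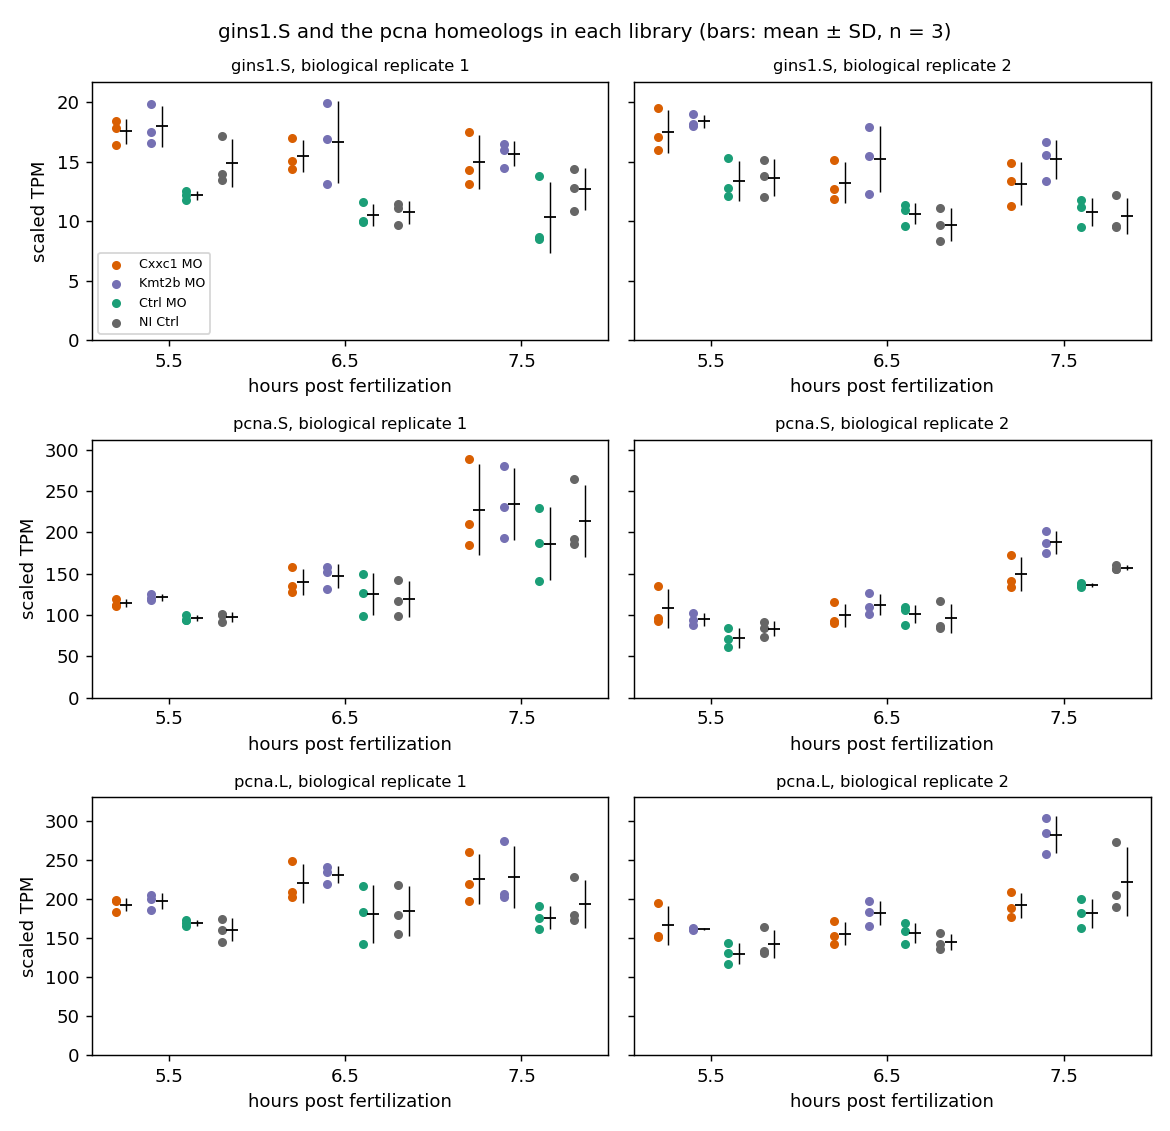
Scaled TPM of gins1.S, pcna.S and pcna.L in each library by hours post fertilization, left biological replicate 1 and right biological replicate 2, with mean ± SD beside each group of 3 libraries. gins1.S lies higher in Cxxc1 MO and Kmt2b MO than in Ctrl MO at 5.5 hpf, and pcna.L of Kmt2b MO reaches 304 in biological replicate 2 at 7.5 hpf.

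At 5.5 hpf 2 of 55 members were called in Cxxc1 MO (background 0.404%) and 2 in Kmt2b MO (background 1.35%), gins1.S and pcna.S in both. pcna.S, the sliding clamp, was higher by 0.40 ± 0.09 (limma adjusted p = 0.049) and 0.36 ± 0.09 (limma adjusted p = 0.046), calls lost in 10 of 12 and 9 of 12 fits that left out 1 library. At 6.5 hpf 3 were called in Cxxc1 MO (background 1.87%), which were gins1.S, rpa2.L and mcm4.L, and 2 in Kmt2b MO (background 3.46%), gins1.S and rpa2.L. mcm4.L, a helicase subunit, was lower in Cxxc1 MO by -0.18 ± 0.04 at 6.5 hpf (limma adjusted p = 0.033) and -0.17 ± 0.04 at 7.5 hpf (limma adjusted p = 0.021).

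At 7.5 hpf 3 members were called in Cxxc1 MO (background 2.68%), which were rpa2.L and mcm4.L, lower, and rpa1.S, the largest RPA subunit, higher by 0.15 ± 0.04. In Kmt2b MO 11 were called (background 6.12%), 5 higher and 6 lower. pcna.L had 273, 203 and 207 scaled TPM in Kmt2b MO, against 162, 191 and 175 in Ctrl MO in biological replicate 1. In biological replicate 2 it had 257, 304 and 284 in Kmt2b MO, against 182, 162 and 200 in Ctrl MO. The groups did not overlap in either, and the difference was 0.50 ± 0.12 (limma adjusted p = 0.012). The NI Ctrl libraries, at 172 to 273, overlapped those of Kmt2b MO.

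The GINS subunits gins3.L and gins2.L were also higher in Kmt2b MO at 7.5 hpf, by 0.33 ± 0.10 and 0.20 ± 0.06, and rpa1.S by 0.20 ± 0.04. rif1.S, which controls the timing of origin firing, was lower, with a difference of -0.18 ± 0.05, as was mcm4.L at -0.16 ± 0.04. The other 3 that were lower than in Ctrl MO were cdc6.S at -0.14 ± 0.04, cdt1.L at -0.12 ± 0.04 and rfc1.L, the large loader subunit, at -0.12 ± 0.04. The count of 11 was 3 on deposited TPM, 7 on protein-coding TPM and 4 to 12 when 1 library was left out. Of the members called on deposited TPM, 2 were higher and 1 lower, against 5 higher on scaled TPM. On protein-coding TPM 6 were higher and 1 lower, and rpa2.L was the lower one on both. The lower calls of mcm4.L, rif1.S, cdc6.S, cdt1.L and rfc1.L were lost on both of these scales. Of all genes, 1196 of 19544 were called on scaled TPM, 348 of 19544 on deposited TPM and 1140 of 16955 on protein-coding TPM. With 1 library left out, the calls of rpa2.L, gins1.S, pcna.L and rpa1.S held in all 12 fits and that of mcm4.L in 11, while gins3.L lost its call in 11 of 12, cdt1.L and rfc1.L in 9, gins2.L in 8 and cdc6.S and rif1.S in 7. In Cxxc1 MO, rpa1.S lost its call in 10 of 12 and mcm4.L in 4 of 12 at 7.5 hpf, and at 6.5 hpf mcm4.L lost it in 10 and gins1.S in 6. The mcm4.L calls in Cxxc1 MO at both times were also lost on deposited and on protein-coding TPM. On deposited TPM 0 members were higher in Cxxc1 MO at 6.5 or 7.5 hpf. The calls of gins1.S at 6.5 hpf and rpa1.S at 7.5 hpf were therefore lost on that scale. Fitted alone for Kmt2b MO at 7.5 hpf, biological replicate 1 gave 0 calls and biological replicate 2 gave 5. These fits called 4 and 616 of all 19544 genes, so the counts do not show that the frogs differed.

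**Figure D5:**
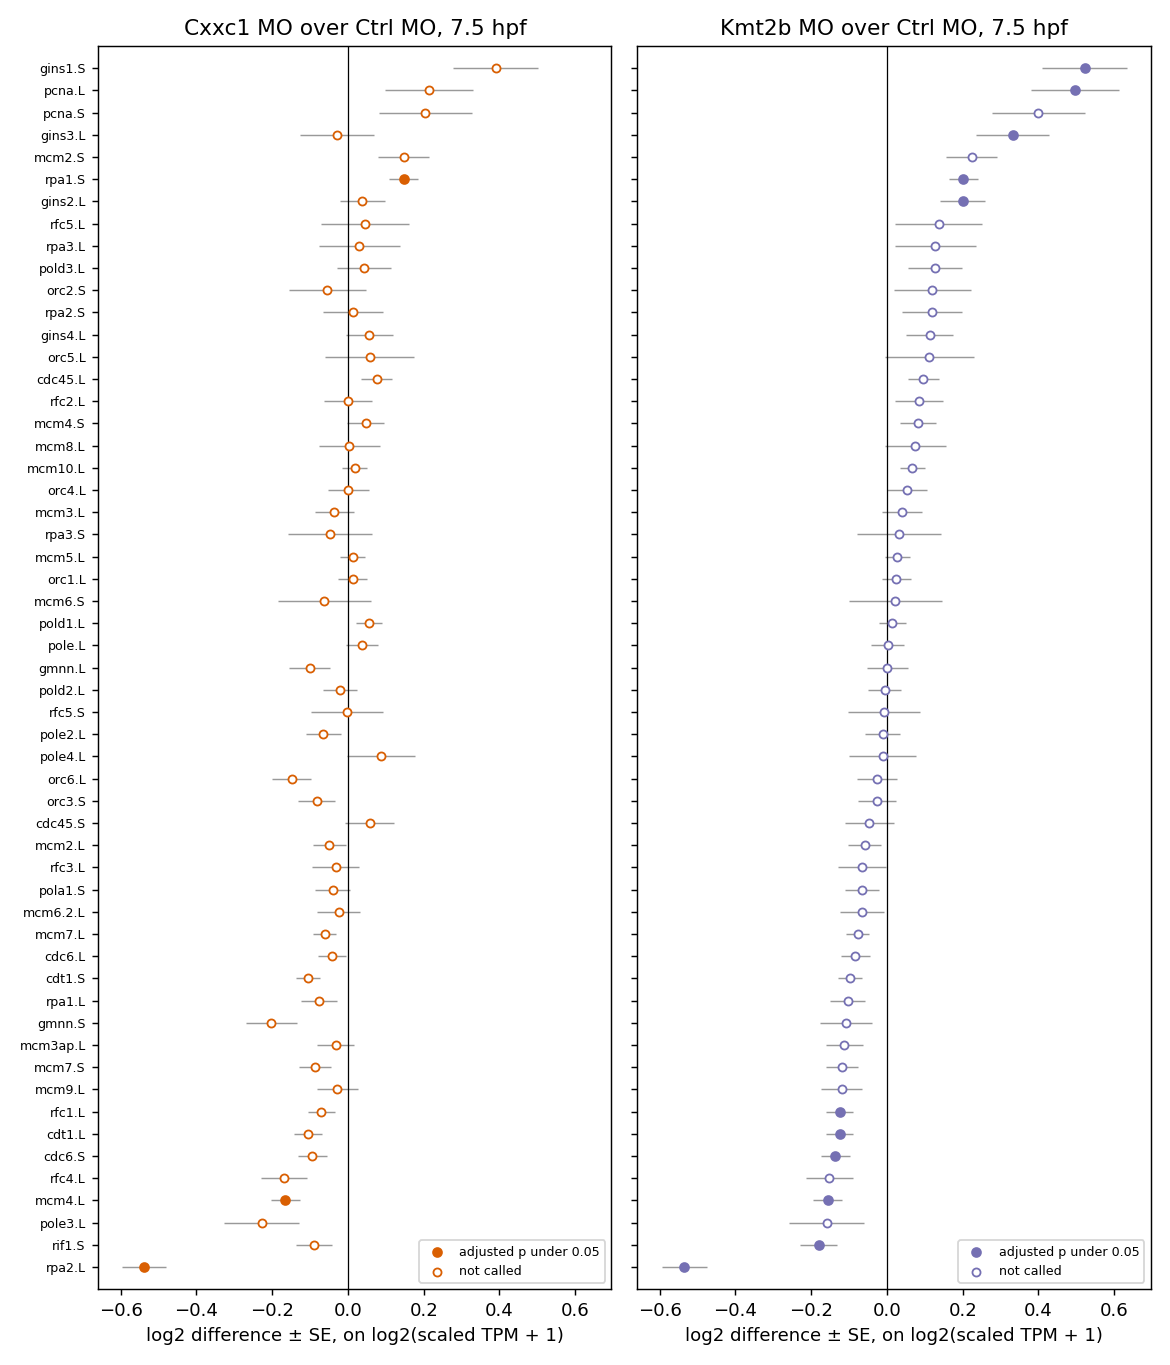
Log2 difference from Ctrl MO at 7.5 hpf on log2(scaled TPM + 1) with SE bars (x axis) for the 55 tested genes, left Cxxc1 MO and right Kmt2b MO, ordered by the Kmt2b MO value. Filled points have a limma adjusted p under 0.05: 3 in Cxxc1 MO and 11 in Kmt2b MO, with rpa2.L lowest in both.

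The knockdowns were not separated from each other: between Kmt2b MO and Cxxc1 MO 0 members were called by limma at 5.5 hpf (background 0%), 6.5 hpf (background 0.00512%) and 7.5 hpf (background 0%). At an unadjusted p under 0.05 there were 3, 2 and 4 members, against 767, 783 and 1632 of all 19544 genes. Injection alone gave 0 called members, Ctrl MO against NI Ctrl, by limma at 5.5 hpf (background 0.0256%), 6.5 hpf (background 0.0563%) and 7.5 hpf (background 0.0870%). Here 2, 3 and 3 members had an unadjusted p under 0.05, against 1219, 764 and 2321 of all 19544 genes. A difference of a knockdown's effect between the frogs was called by limma for 0 members in each of 6 tests. In these, 1 to 6 members had an unadjusted p under 0.05, against 797 to 1425 of all genes. These tests called 0 to 2 of all 19544 genes, so the counts do not show that the frogs responded alike. At 7.5 hpf the summed zygotic mesendoderm markers had medians of 174 TPM in Cxxc1 MO and 160 TPM in Kmt2b MO, against 254 TPM in Ctrl MO and 365 TPM in NI Ctrl. Their ranges overlapped, at 101 to 289 and 95.7 to 257 TPM, against 151 to 550 and 177 to 461 TPM. In the same order, animal and pluripotency markers had medians of 815 and 871 TPM, against 855 and 932 TPM. Maternal vegetal markers had medians of 416 and 364 TPM, against 480 and 414 TPM. All are deposited TPM over both biological replicates. The part of these markers in the differences above was not tested.

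Of 64 other genes of replication or its regulation in the tables, 60 were tested. The 64 include 21 genes that regulate transcription (E2F, TFDP and RB names) and 7 of Cdt1 degradation. Such transcription regulators were among both the rising and the falling genes counted next. In NI Ctrl embryos 10 rose (28.2% of all genes) and 18 fell (17.5% of all genes) from 5.5 to 7.5 hpf on scaled TPM. Of those that rose, dut.S, the dUTPase gene, changed by 0.99 and e2f7.L, a repressor of the E2F family, by 0.81. topbp1.L, needed to recruit Cdc45, changed by -1.11 (mean of both biological replicates) and cdc7.L, the kinase that activates MCM2-7, by -1.03. ticrr.L, the Treslin gene of origin firing, changed by -0.73 and clspn.S, the fork checkpoint gene claspin, by -0.87. TopBP1 and Treslin are among the factors known to limit origin firing in the frog midblastula embryo.

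At 7.5 hpf 3 of these 60 were higher and 2 lower in Cxxc1 MO (2.68% of all genes were called), and 5 were higher and 5 lower in Kmt2b MO (6.12% of all genes). prim1.S, the catalytic subunit of primase, was higher in both knockdowns at all 3 times, by 0.27 ± 0.05 and 0.31 ± 0.05 at 7.5 hpf. rrm1.S, the large subunit of ribonucleotide reductase, was lower in both at all 3 times, with -0.43 ± 0.04 and -0.37 ± 0.04 at 7.5 hpf, while rrm1.L was higher by 0.14 ± 0.03 and 0.16 ± 0.03. cdc7.L was higher by 0.35 ± 0.07 with Cxxc1 MO and by 0.46 ± 0.07 with Kmt2b MO. dut.L, the L copy of the dUTPase gene, was lower at 7.5 hpf, with -0.41 ± 0.09 in Cxxc1 MO and -0.34 ± 0.09 in Kmt2b MO.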

How the data were processed

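Per the labels, total RNA was depleted of rRNA. The authors pseudoaligned paired reads to Xenbase transcripts with kallisto 0.48, added up the isoforms of a gene, and deposited the TPM of each biological replicate in its own table. Counts were not used here, so the authors' DESeq2 test was not repeated. Here TPM was divided by a median-of-ratios factor within each table, and log2(scaled TPM + 1) was fitted in R 4.3.3 with limma 3.58.1 (lmFit, eBayes with trend). Genes averaging 1 TPM or more in both biological replicates were kept.

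Injection groups were compared over the 24 libraries of a time point with biological replicate as covariate (19 residual degrees of freedom). Times were compared within each biological replicate (36 libraries), and the difference of time changes over all 72. P-values were adjusted over all genes by the Benjamini-Hochberg method. The fits were tested on simulated data.

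The members and lists were chosen with earlier results of these data known. Named are, in each role group, the member with the highest level, the largest rise and the largest fall in NI Ctrl, every member called between injection groups, the 2 with the largest change from Ctrl MO at 7.5 hpf, and their homeologs. Other members are named as examples, chosen after their values were seen. Alternatives were deposited and protein-coding TPM, a pseudocount of 0.1, no filter or a mean of at least 5 TPM, other sample subsets, a replicate block and leaving out each library. Gene names were matched to the RefSeq annotation for 56 of 57 members. No sequences were used here.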

Additional observations from a re-analysis of the deposited data

Results flagged for a closer look

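The effect of both knockdowns on rpa2.L differed between 5.5 and 7.5 hpf, by a test of the difference of the time changes. Relative to Ctrl MO, the log2 change over time was -0.36 ± 0.07 (SE) in Cxxc1 MO (limma adjusted p = 0.011) and -0.36 ± 0.07 in Kmt2b MO (limma adjusted p = 0.0036). Without any 1 library the value stayed between -0.39 and -0.32 in Cxxc1 MO and between -0.40 and -0.33 in Kmt2b MO. On deposited TPM it was -0.41 (limma adjusted p = 0.39) and -0.35 (limma adjusted p = 0.48), and on protein-coding TPM -0.34 (limma adjusted p = 0.13) and -0.31 (limma adjusted p = 0.076). With NI Ctrl in place of Ctrl MO it was -0.22 for both, and the call was lost (limma adjusted p = 0.083 for Cxxc1 MO and 0.091 for Kmt2b MO). The 2 knockdowns share their Ctrl MO libraries.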

How the results depend on the processing

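For Cxxc1 MO at 5.5 hpf the count of 2 was 1 with a pseudocount of 0.1, without a filter, with only the 2 groups, with all 72 libraries and with a replicate block. Of all 19544 genes, 79 were called on scaled TPM with 24 libraries and 56 with all 72. For Kmt2b MO at 5.5 hpf the count of 2 was 1 on deposited TPM, without a filter and with all 72 libraries, 4 on protein-coding TPM and with a replicate block, and 5 with genes of at least 5 TPM. Of all 19544 genes, 263 were called on scaled TPM with 24 libraries, 139 on deposited TPM and 202 with all 72 libraries. On protein-coding TPM 284 of 16955 genes were called. At 6.5 hpf the 3 of Cxxc1 MO were 1 on deposited TPM and without a filter, and the 2 of Kmt2b MO were 4 with genes of at least 5 TPM. For Cxxc1 MO, 365 of all 19544 genes were called on scaled TPM and 196 on deposited TPM. At 7.5 hpf the 3 of Cxxc1 MO were 1 on deposited TPM and with only the 2 groups and 8 with all 72 libraries. The 11 of Kmt2b MO were 3 on deposited TPM, 7 on protein-coding TPM, 5 with only the 2 groups and 18 with all 72 libraries. For Cxxc1 MO, 524 of all 19544 genes were called on scaled TPM with 24 libraries, 105 on deposited TPM and 1033 with all 72 libraries. For Kmt2b MO these were 1196, 348 and 2384, and on protein-coding TPM 1140 of 16955 genes. All-gene counts of the other settings are not given here. Biological replicate 1 alone gave 0 calls throughout, and biological replicate 2 alone gave 0 calls, except 1 for Cxxc1 MO and 5 for Kmt2b MO at 7.5 hpf. Over all genes and times, these fits called 86 and 1147 of 117264 tests against Ctrl MO. Of the correlations between libraries of the same set number 18 of 72 were over 0.1 (median 0.037), and of those between other numbers 9 of 144 (median -0.014). Most same-number values stayed below 0.1 and the labels name no shared origin, so the numbers were not taken to pair the libraries. Values over 0.1 were still more frequent for the same number, and whether such libraries share an origin was not tested. The replicate block left 8 calls for Kmt2b MO at 7.5 hpf.

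Without 1 library the counts ran from 1 to 2, 1 to 3 and 1 to 3 for Cxxc1 MO at 5.5, 6.5 and 7.5 hpf and from 1 to 3, 2 to 3 and 4 to 12 for Kmt2b MO. The last fell to 4 without Kmt2b MO replicate 1 of biological replicate 1, to 6, 5 and 6 without Kmt2b MO replicate 1, 2 or 3 of biological replicate 2, to 7 without Ctrl MO replicate 3 of biological replicate 1, and to 5, 6 and 7 without Ctrl MO replicate 1, 2 or 3 of biological replicate 2. Members that rose from 5.5 to 7.5 hpf ran from 11 to 14 (Cxxc1 MO), 13 to 15 (Kmt2b MO), 15 to 17 (Ctrl MO) and 15 to 17 (NI Ctrl), and those that fell from 13 to 15, 9 to 14, 9 to 12 and 12 to 15. In NI Ctrl they ran from 0 to 1 (rose) and 0 to 1 (fell) up to 6.5 hpf and from 14 to 17 and 9 to 12 after it. The difference of changes stayed at 1 for both knockdowns, and was 0 on deposited and protein-coding TPM. On deposited TPM it was called for 1 (Cxxc1 MO) and 29 (Kmt2b MO) of all 19544 genes. On protein-coding TPM it was called for 10 and 145 of 16955 genes. With NI Ctrl in place of Ctrl MO the count of members was 0 for Cxxc1 MO and 3 for Kmt2b MO. All-gene counts of this fit and of the fits without 1 library are not given here.

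On deposited TPM 0 members rose from 5.5 to 7.5 hpf in any group, and 49 (Cxxc1 MO), 47 (Kmt2b MO), 47 (Ctrl MO) and 48 (NI Ctrl) fell. Most genes fell on this scale: 14297, 13949, 14045 and 13972 of all 19544 in the same order, while 2039, 2166, 2255 and 2235 rose. On protein-coding TPM 2, 3, 3 and 3 members rose and 45, 42, 43 and 42 fell. Of all 16955 genes on that scale, 974, 1066, 1045 and 1094 rose and 12628, 12084, 12408 and 12407 fell. From 6.5 to 7.5 hpf in NI Ctrl 0 members rose and 49 fell on deposited TPM, and 2 rose and 41 fell on protein-coding TPM. Of all 19544 genes 1917 rose and 14481 fell on deposited TPM, and of 16955 on protein-coding TPM 804 rose and 12033 fell. With both biological replicates fitted together, 19 rose in Cxxc1 MO, 20 fell in Kmt2b MO and 22 fell in NI Ctrl, 21 of NI Ctrl fell after 6.5 hpf, and 3 rose and 6 fell before it. That early fall was 2 on protein-coding TPM (197 of all 16955 genes) and 0 with the 9 libraries of the group alone. All-gene counts of the joint fit and of the fit with 9 libraries are not given here. Their member counts therefore cannot be set against all genes.

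Among the members named, the NI Ctrl change from 5.5 to 7.5 hpf turned negative on deposited and on protein-coding TPM for cdc6.L (-0.74 and -0.36), cdc6.S (-0.98 and -0.60), cdt1.L (-0.97 and -0.59), cdt1.S (-0.97 and -0.59), gins2.L (-0.76 and -0.39), gmnn.L (-0.49 and -0.11), mcm7.L (-0.755 and -0.37), mcm7.S (-0.92 and -0.55), orc6.L (-0.47 and -0.10), pcna.L (-0.64 and -0.26) and rif1.S (-1.07 and -0.69). It was negative on deposited TPM but positive on protein-coding TPM for gmnn.S (-0.091), pcna.S (-0.078) and rpa3.L (-0.20), and negative on deposited TPM for mcm6.S (-0.10), which has no value on the other scale. These scales keep the shift of the typical gene. Within a library, each of them differs from scaled TPM by a single factor that applies to every gene alike. The sign changes listed follow from this factor, up to the pseudocount. Why other results moved was not tested. TPM keeps no read depth, so counting error is unknown.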
